A study of Mus musculus with 8 samples.

Results

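The ISG15 conjugation system attaches a small ubiquitin-like protein to other proteins, and 5 of the 55367 genes in the deposited count table encode it. They were chosen by name and role: Isg15 is the modifier, Uba7 the activating enzyme (E1), Ube2l6 the conjugating enzyme (E2), Herc6 the ligase (E3) and Usp18 the protease that takes the modifier off again. All 5 genes passed the filter on low counts and were among the 15117 genes tested. Poly(A)-enriched RNA came from Neuro2a, a mouse neuroblastoma line, after plasmid transfection for CRISPR activation (CRISPRa). In CRISPRa a catalytically inactive Cas9, here sadCas9 fused to the activator VP64, is led to a gene by a guide RNA, and the series is directed at Scn2a. The CRISPRa cultures received 750 ng of sgRNA plasmid with 750 ng of sadCas9-VP64 plasmid. The no-sgRNA cultures received the sadCas9-VP64 plasmid without a guide plasmid, in an amount that the labels do not give, and no untransfected culture is among the samples. The libraries analysed were replicates 2, 3 and 5 of CRISPRa and, of the no-sgRNA group, replicates 2, 3 and 4. The labels do not say whether replicates are separate cultures or transfections, so p-values measure the spread between these libraries, which may be technical.

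ISG15 is one of the proteins most strongly induced by type I interferon. It is charged by Uba7, passed to Ube2l6 and joined to lysines of target proteins by an E3 ligase, which in mouse cells is mainly Herc6, since mice lack the human ligase HERC5. Usp18 cleaves ISG15 from its targets and, apart from that activity, binds the interferon receptor subunit Ifnar2 and dampens the signal, so it also serves as a feedback inhibitor. Interferon acts on such genes through the interferon-stimulated response element (ISRE), a promoter sequence bound by interferon regulatory factors.

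The bases just before the annotated start of 4 members are shown because the members moved together. RefSeq promoter windows (GRCm38.p6, 250 bases before to 50 bases after the start) were found for Isg15, Uba7, Ube2l6 and Herc6, and Usp18 was not matched. Each window was searched on both strands for the ISRE letters GAAANNGAAA, for the shorter interferon regulatory factor core AANNGAAA, which lies inside every ISRE match, and for the gamma-activated site (GAS) letters TTCNNNGAA. Capitals mark the matches to the first and second of these.

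Isg15 (chr4:156200819-156200968, minus strand, the 150 bases before the start): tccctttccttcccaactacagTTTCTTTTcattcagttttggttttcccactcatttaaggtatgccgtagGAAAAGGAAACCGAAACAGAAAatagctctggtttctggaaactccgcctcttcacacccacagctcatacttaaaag
Ube2l6 (chr2:84798678-84798827, plus strand, the 150 bases before the start): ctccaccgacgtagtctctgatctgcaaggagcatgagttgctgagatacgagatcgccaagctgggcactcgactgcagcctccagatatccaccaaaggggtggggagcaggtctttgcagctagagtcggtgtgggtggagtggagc
Herc6 (chr6:57580842-57580991, plus strand, the 150 bases before the start): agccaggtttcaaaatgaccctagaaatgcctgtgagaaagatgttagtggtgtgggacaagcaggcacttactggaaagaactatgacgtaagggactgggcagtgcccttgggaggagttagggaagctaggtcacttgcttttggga
Uba7 (chr9:107975527-107975556, plus strand, 30 bases around its match): caactcagtctagTTTCACTTttggtttcc

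The Isg15 window held 3 overlapping ISRE matches, beginning 78, 72 and 66 bases before the start, and 1 further core match on the opposite strand at 128 bases. Uba7 held no ISRE match and 1 core match, 27 bases before the RefSeq start, on the opposite strand. GENCODE places the first base of Uba7 62 bases further upstream, so this match lies inside the first annotated exon there. In the Ube2l6 and Herc6 windows neither motif was found, and none of the 4 windows had the GAS letters. Among all 27025 genes with such a window, 3.99% held an ISRE match, 26.7% the core and 9.55% the GAS letters. Of the 119 genes that rose at least 4-fold, 91 had a window, the 4 members with a window among them. Of these 91 genes 41.8% held an ISRE match, 62.6% the core and 16.5% the GAS letters. Among the 10671 tested genes with a window the shares were 3.61%, 20.8% and 8.11%. A match describes letters in a window of 300 bases and is not evidence that a factor binds there.

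All 5 members were higher with CRISPRa, by 4.29-fold to 144-fold. In edgeR's quasi-likelihood test with Benjamini-Hochberg adjustment over all tested genes, each passed an adjusted p of 0.05. Over all tested genes 18.7% passed in either direction and 9.47% were higher, and 0.787% passed with a rise of at least 4-fold, which all 5 members had. For 5 of 5 members the lowest CRISPRa value exceeded the highest control value, against 17.7% of tested genes. The median log2 fold change was 3.51 over the members and -0.0071 over all tested genes. The members were selected with earlier results of these data known, so these counts describe them and do not add independent support for a rise. More responding cells and more RNA per cell cannot be told apart in bulk libraries.

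Isg15 (chromosome 4, 156199455 to 156200796, minus strand, protein coding, mm10), the modifier itself, was read 7593, 7502 and 8596 times in CRISPRa replicates 2, 3 and 5, and 438, 436 and 362 times in the controls' replicates 2, 3 and 4. As CPM, counts divided by a library size corrected by TMM (trimmed mean of M-values), these were 220, 230 and 265 CPM with CRISPRa and 14.4, 14.7 and 11.4 CPM without the guide. The groups were far apart, and the transcript was plainly present in the controls. The means were 238 ± 23.5 and 13.5 ± 1.79 CPM (SD, n = 3), a log2 change of 4.14 (SE 0.10, edgeR adjusted p 3.04e-13) or 17.7-fold. Of its 50-base words, 3.96% also occur in transcripts of another gene, chiefly AC151275.1. The span given above for Isg15 is that of the counted exons. GENCODE places the gene at 156199424 to 156200818, with the same start as the RefSeq window, and the neighbour gaps use that span.

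Uba7 (chromosome 9, 107975505 to 107984060, plus strand), the E1 enzyme that charges ISG15, stood at 11.8, 13.3 and 21.1 CPM in CRISPRa replicates 2, 3 and 5. In no-sgRNA replicates 2, 3 and 4 it stood at 2.16, 1.72 and 2.27 CPM. Replicate 5 was well above the other CRISPRa libraries, and the standard deviation of the group was 32.7% of its mean, the largest among the members with CRISPRa. From 2.05 ± 0.295 to 15.4 ± 5.03 CPM (SD, n = 3) the log2 fold change was 2.90 (SE 0.23, edgeR adjusted p 3.66e-07), or 7.48-fold. Without CRISPRa replicate 5 the log2 fold change was 2.62, still past the threshold. Exons of Gm20661 on the same strand cover 3.48% of its exonic bases.

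Ube2l6 (chromosome 2, 84798828 to 84810335, plus strand), the E2 enzyme, had the smallest rise of the 5. Its level was 25.5, 27.0 and 31.8 CPM in CRISPRa replicates 2, 3 and 5. In no-sgRNA replicates 2, 3 and 4 it was 7.60, 6.06 and 6.0 CPM, so the lowest CRISPRa library was above the highest control by a wide margin. The means were 28.1 ± 3.30 and 6.56 ± 0.908 CPM (SD, n = 3), a log2 change of 2.10 (SE 0.13, edgeR adjusted p 2.51e-08), or 4.29-fold. Other transcripts, mostly of Gm17167, hold 8.32% of its 50-base words.

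Herc6 (chromosome 6, 57581000 to 57664632, plus strand), the E3 ligase, stood at 30, 27.6 and 34.6 CPM in CRISPRa replicates 2, 3 and 5. It stood at 3.67, 2.12 and 2.31 CPM in no-sgRNA replicates 2, 3 and 4, where replicate 2 was the highest. The rise from 2.70 ± 0.846 to 30.7 ± 3.56 CPM (SD, n = 3) was 11.4-fold, a log2 change of 3.51 (SE 0.18, edgeR adjusted p 1.36e-09). Its value carries some uncertainty, because exons of Gm45193 on the same strand cover 13.7% of its exonic bases.

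Usp18 (chromosome 6, 121245906 to 121270917, plus strand), the ISG15 protease and brake on the interferon receptor, changed most. It had 3617, 3681 and 4420 counts in CRISPRa replicates 2, 3 and 5, against 30, 32 and 13 in no-sgRNA replicates 2, 3 and 4. These were 105, 113 and 136 CPM with CRISPRa and 0.983, 1.08 and 0.411 CPM without the guide. No-sgRNA replicate 4 was the lowest, and with so few counts the control level was the least precise of the 5, its standard deviation reaching 43.8% of the mean. The means were 118 ± 16.3 and 0.824 ± 0.361 CPM (SD, n = 3), a log2 change of 7.17 (SE 0.19, edgeR adjusted p 3.22e-13), or 144-fold. Gm44148 on the opposite strand overlaps 4.44% of its exonic bases, and whether the counting used strand is not given in the sources used here. Ranked by fitted log2 fold change over all tested genes, Usp18 was at place 23, Isg15 at 57, Herc6 at 66, Uba7 at 82 and Ube2l6 at 114.

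**Figure D1:**
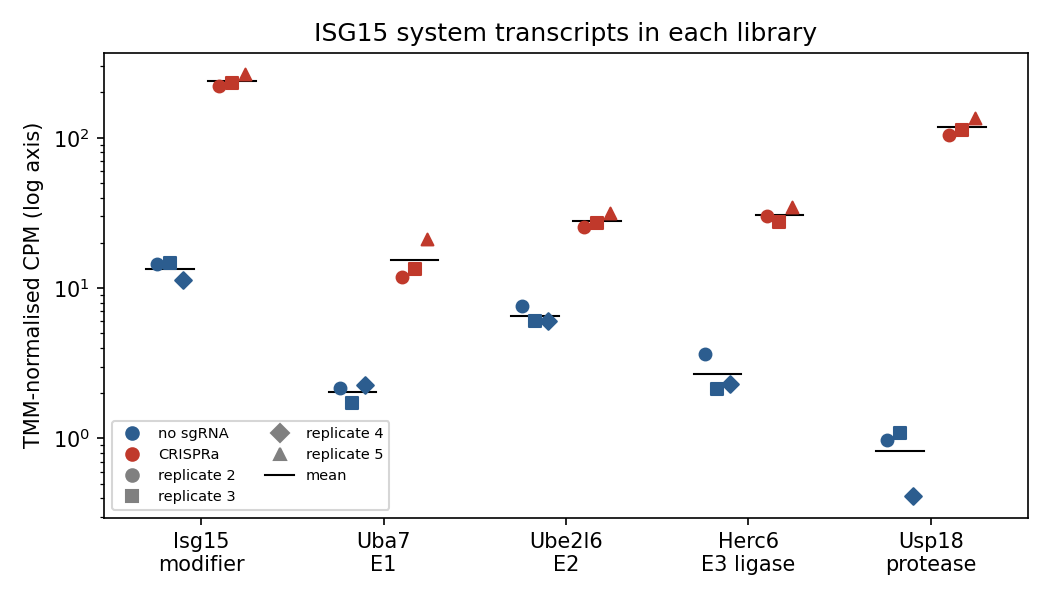
TMM-normalised CPM of the 5 members on a log axis, with 1 point per library and a line at each group's mean (n = 3). The CRISPRa libraries lie above the no-sgRNA libraries for every member, with the widest gap for Usp18 (118 against 0.824 CPM), and CRISPRa replicate 5 is the highest library for each member.

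CRISPRa replicate 5 was thus the highest library for 5 of 5 members. The libraries that stood apart in their whole profile were the same CRISPRa replicate 5 and no-sgRNA replicate 4, with a chi-square per degree of freedom of 15.7 and 17.1 to the other CRISPRa libraries and of 14.1 and 16.6 to the other controls, against 4.73 and 5.98 within the remaining pairs. Without these 2 libraries all 5 members were still called, and their log2 fold changes ran from 1.94 for Ube2l6 to 6.72 for Usp18. Library totals were between 29739422 and 34248514 counts, so 3 counts, the floor used here for detection, correspond to 0.0871 to 0.101 CPM. Scn2a, the target of the guide, averaged 7.81 ± 0.714 CPM in the CRISPRa libraries against 5.61 ± 1.31 CPM in the controls (SD, n = 3), and its log2 change of 0.48 did not pass the threshold (edgeR adjusted p 0.0899).

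The authors' deposited table, which was made from 8 samples, lists the same order of effects. It gives log2 fold changes of 7.23 for Usp18, 4.20 for Isg15, 3.46 for Herc6, 2.77 for Uba7 and 2.22 for Ube2l6. The sign of the authors' deposited table was read from genes that fell: of 1280 genes that were lower in the 6 libraries and past 0.05 there, 1280 have a negative value. By its stated size it would include the 6 libraries used here, so its values are not an independent repeat.

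Levels of different genes were compared per kilobase of exon, since the members differ in length from 703 exonic bases for Isg15 to 9292 for Herc6. Without the guide Isg15 led with 19.2 ± 2.54 CPM per kilobase and Ube2l6 followed with 3.28 ± 0.455 (SD, n = 3). The remaining 3 genes were lower: Uba7 had 0.307 ± 0.0441, Usp18 0.295 ± 0.129 and Herc6 0.291 ± 0.0911 CPM per kilobase. Their libraries overlapped, so their order was not resolved. With CRISPRa the order was Isg15 at 339 ± 33.5, Usp18 at 42.3 ± 5.84, Ube2l6 at 14.1 ± 1.66, Herc6 at 3.31 ± 0.383 and Uba7 at 2.30 ± 0.752 CPM per kilobase (SD, n = 3). The protease transcript had moved from among these 3 low genes, with the E1 and E3, to the second place, above the E2. Neighbours in the CRISPRa order did not overlap, except Herc6 and Uba7. With the longest coding transcript in place of the summed exon length, the CRISPRa order was the same and the controls' 3 low genes again overlapped.

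**Figure D2:**
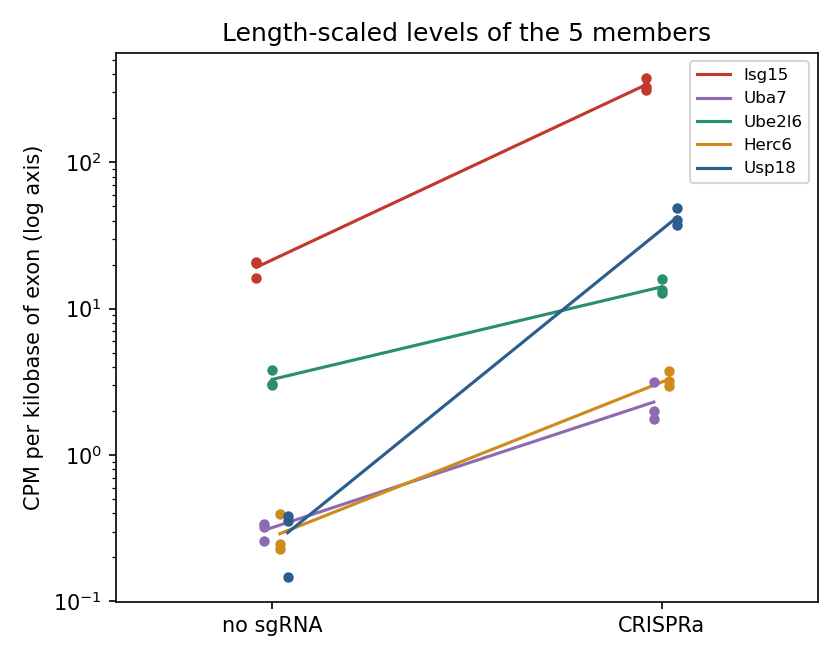
CPM per kilobase of exon (log axis) for each member in the no-sgRNA and CRISPRa groups, with 1 point per library and lines joining the group means. The Usp18 line crosses that of Ube2l6, from 0.295 against 3.28 without the guide to 42.3 against 14.1 with it.

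Whether the members rose by unequal amounts was tested with the log2 ratio of raw counts, with nothing added, within each library, which needs no scaling between libraries. For 9 of the 10 pairs the groups did not overlap, and each of these gave an exact two-sided permutation p of 0.1, the smallest that 3 against 3 allows, or 0.111 after Benjamini-Hochberg adjustment over the 10 pairs. No pair could therefore pass 0.05. The ratio of Isg15 to Usp18 was 3.87, 3.77 and 4.80 (log2) in no-sgRNA replicates 2, 3 and 4, and 1.07, 1.03 and 0.960 in CRISPRa replicates 2, 3 and 5. Its mean differed by -3.13, so the modifier outnumbered the protease 8.73-fold less with CRISPRa. The ratio of Ube2l6 to Usp18 differed most, by -5.17, from 3.10 ± 0.701 to -2.07 ± 0.0292 (log2, SD, n = 3). In other words Ube2l6 had more counts than Usp18 in every control library and fewer in every CRISPRa library.

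Among the conjugating genes the ratios moved less. Isg15 over Herc6 differed by 0.60 and Isg15 over Uba7 by 1.28 (log2), and Isg15 over Ube2l6 by 2.04. Uba7 over Herc6 differed by -0.68 with overlapping groups (exact permutation p = 0.2, adjusted 0.2) and kept its sign in the 7 alternatives, from -0.88 to -0.50, so this test does not settle whether the E1 and the E3 rose by different folds. Within the CRISPRa group several ratios were tight: Isg15 over Ube2l6 was 3.11, 3.09 and 3.06 (log2) in the 3 libraries. Ratios with Uba7 were looser there, since Uba7 alone was much higher in replicate 5.

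**Figure D3:**
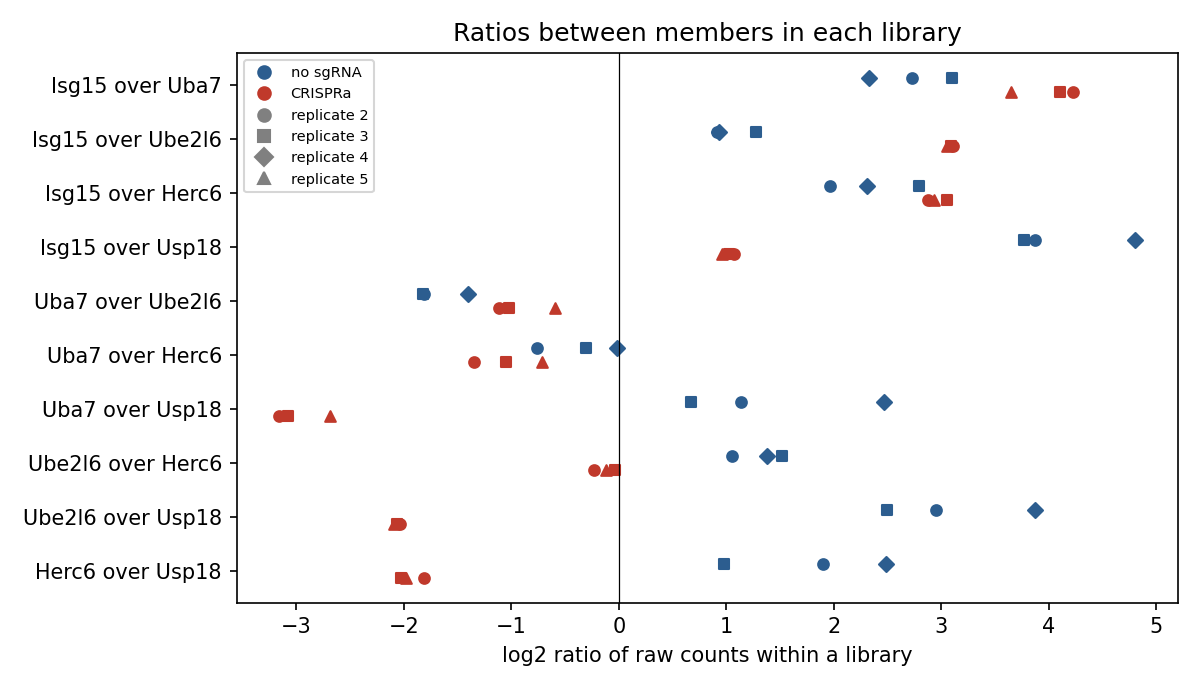
Log2 ratio of raw counts of 2 members within each library, for all 10 pairs, with 1 point per library. The groups are separate for 9 pairs and overlap for Uba7 over Herc6; the 4 pairs that hold Usp18 show the widest gaps.

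Together the 5 genes took 0.0433% ± 0.00512 of all counts with CRISPRa and 0.00255% ± 0.00035 without the guide (SD, n = 3). Isg15 supplied 55.4% ± 1.07 of this sum with CRISPRa and 52.7% ± 3.94 without, and the ranges overlapped. The share of Usp18 was 27.4% ± 0.611 against 3.15% ± 1.21 (SD, n = 3), with no overlap.

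The other ubiquitin-like systems were set beside the ISG15 system to see how their own enzymes behaved. Of 58 listed genes, 57 were tested and 11 (19.3%) were called, 7 higher and 4 lower, close to the 18.7% over all tested genes. Their median log2 fold change was -0.026, and all lay below the smallest rise among the members. The gene for FAT10 (Ubd), the other modifier known to be driven by interferon, had 0 counts in all 6 libraries.

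Uba1, the E1 of ubiquitin, averaged 405 ± 7.82 CPM in the CRISPRa libraries and 411 ± 12.8 CPM in the controls (SD, n = 3), and its log2 change was -0.02 (edgeR adjusted p 0.867). Ube2l3, the closest relative of Ube2l6, had 0.15 (adjusted p 0.145). Of the genes that encode ubiquitin, Ubb rose (log2 fold change 0.31) and Rps27a fell (-0.19). The fall of Rps27a was lost under median-ratio scaling (adjusted p 0.0549), and ubiquitin genes have near-identical repeats and many pseudogenes, so their counts are uncertain. Uba6, a second E1 for ubiquitin, rose by 0.38 (log2, adjusted p 0.00401).

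In the SUMO system 1 of 16 genes (6.25%) was called, against 18.7% over all tested genes. It was Senp6, a SUMO protease, at -0.28. For NEDD8 it was 1 of 9 (11.1%), Rnf7, a cullin ligase subunit, at -0.42. None of 8 UFM1 genes and none of 2 URM1 genes was called in edgeR, where 1 gene of each list had an unadjusted p under 0.05. DESeq2 and limma-voom likewise called 0 genes of either list. The autophagy conjugation genes had 4 of 15 (26.7%) called, all higher, against 18.7% called and 9.47% called higher over all tested genes. These 4 encode modifiers of the ATG8 family: Gabarapl1 (log2 fold change 0.55), Map1lc3b (0.46), Map1lc3a (0.43) and Gabarapl2 (0.25, edgeR adjusted p 0.0449). Gabarapl2 was named after its value was seen. Gabarap, of the same family, was not called (log2 fold change -0.01, edgeR adjusted p 0.927).

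**Figure D4:**
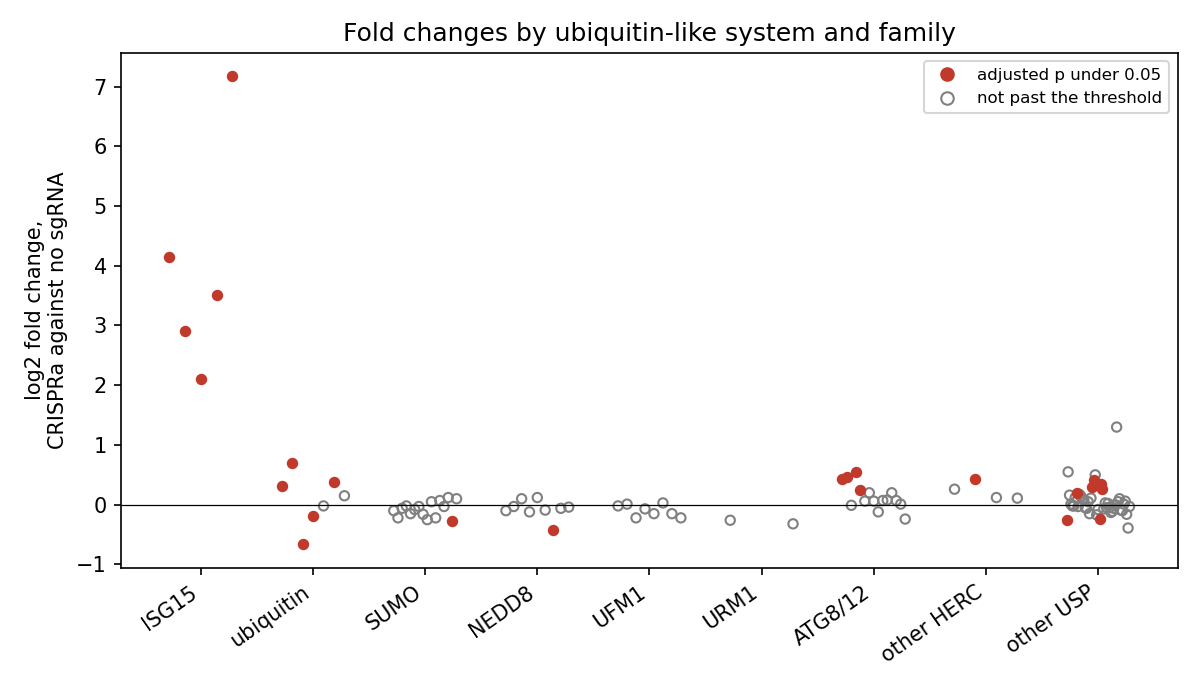
Log2 fold changes of the tested genes in each ubiquitin-like system and in the HERC and USP families, filled where the edgeR adjusted p was under 0.05. The 5 ISG15 genes lie between 2.10 and 7.17, above every gene of the other systems.

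Relatives of Herc6 and Usp18 were compared within their families. Of the other 4 HERC genes 1 (25%) was called, against 18.7% over all tested genes. It was Herc2, at a log2 change of 0.43 (edgeR adjusted p 0.00126), and Herc1 had 0.26 (edgeR adjusted p 0.063). Herc3, like Herc6 a small HERC ligase, had 0.12 (adjusted p 0.386) and Herc4 0.11 (adjusted p 0.360). Of 50 other USP genes 45 were tested and 7 (15.6%) were called, 5 higher and 2 lower, against 18.7% over all tested genes. Usp25 (0.41), Usp31 (0.35) and Usp24 (0.29) had the largest called rises, and Usp1 (-0.26) and Usp30 (-0.24) fell. Without CRISPRa replicate 2, CRISPRa replicate 3, no-sgRNA replicate 3 or no-sgRNA replicate 4 the USP count was 3, and the calls of Usp24, Usp1 and Usp30 were lost in at least 3 alternatives each.

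Genes that work with ISG15 or Usp18 were described next. Of 13 listed partners 12 were tested and 3 (25%) were called, against 18.7% over all tested genes. Trim25, a ligase that is itself modified by ISG15 and can attach it, rose to 233 ± 7.66 CPM from 95.3 ± 8.89 (SD, n = 3), or log2 1.29 (edgeR adjusted p 6.58e-09). Stat2, which brings Usp18 to the receptor, rose to 124 ± 15.4 CPM from 31.0 ± 1.90 (SD, n = 3), or log2 2.00 (edgeR adjusted p 4.29e-10). Skp2, the ubiquitin ligase subunit that targets Usp18 for degradation, fell by 0.63 on the log2 scale (adjusted p 0.000107), from 55.0 ± 0.933 to 35.5 ± 2.89 CPM (SD, n = 3). The levels of Ifnar2, the receptor subunit that Usp18 binds, overlapped between the groups at 32.5 ± 0.842 and 36.1 ± 5.72 CPM (SD, n = 3; log2 fold change -0.15, adjusted p 0.363). Arih1, a further ligase reported for ISG15, had a log2 change of 0.07 (adjusted p 0.489).

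Proteins that the literature reports as carrying ISG15 made up a list of 18 genes, and 6 (33.3%) were called, all higher, against 18.7% called and 9.47% called higher over all tested genes. The largest rises were those of the RNA sensor genes Ifih1 (log2 fold change 5.10, adjusted p 2.13e-09) and Ddx58 (3.70, adjusted p 1.67e-13). The median of the list was 0.096, so most of its genes lay near no change. In the list of interferon receptor and JAK-STAT genes 6 of 14 (42.9%) were called, all higher, with a median of 0.21, against 9.47% called higher over all tested genes. Irf7, an interferon regulatory factor, rose by 6.15 and Irf9, another member of that family, by 2.48 (log2).

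Genes whose profile over the 6 libraries was most like each member were found by the root mean square (RMS) difference of log2 CPM, each gene centred on its own mean, among 12853 genes with a mean of at least 1 CPM. For Isg15 they were Trim12c (RMS 0.162), Cxcl10 (0.193) and Mx1 (0.195). For Ube2l6 they were Ifi35 (0.163), Eif2ak2 (0.168) and Ifitm3 (0.169). Near Herc6 lay Dhx58 (0.299) and Ddx58 (0.309). Uba7 lay near Plekha4 (0.247) and Sp140 (0.273). Usp18 was closest to Phf11d (0.193), then Oas1a (0.332) and Trim30a (0.369). Of these genes, Oas1a, Sp140 and Trim12c have 57.6%, 57.3% and 33.7% of their 50-base words in other genes too, which leaves their values uncertain. The measure rests on 6 libraries and mostly on the size of the difference between the groups.

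The chromosomal neighbours of the members were examined last, as the nearest tested gene on each side; this set was added after other results had been seen. Gaps ran from 162 bases, for Inka1 after Uba7, to 1037802 bases, for M6pr after Usp18. Of these 10 genes 4 were called, all higher, against 18.7% called and 9.47% called higher over all tested genes. Isg15 had called genes on both sides. Agrn, which encodes the extracellular matrix protein agrin and lies 1935 bases from Isg15 in GENCODE, averaged 725 ± 7.40 CPM with CRISPRa against 274 ± 40.2 in the controls (SD, n = 3), a rise of log2 1.41 (SE 0.09, edgeR adjusted p 2.35e-08). AW011738, 2485 bases away on its far flank, went up to 11.7 ± 0.801 CPM from 3.44 ± 0.808 (SD, n = 3), log2 1.76 (SE 0.18, edgeR adjusted p 7.11e-06). Tuba8, an alpha tubulin gene 19051 bases from Usp18, rose by 0.90 (log2, edgeR adjusted p 0.00113). Serping1, the gene of the C1 complement inhibitor 23383 bases from Ube2l6, had a log2 change of 1.30 (edgeR adjusted p 0.0234). The change of Serping1 did not pass without CRISPRa replicate 3 (adjusted p 0.125), no-sgRNA replicate 2 (0.0720) or no-sgRNA replicate 3 (0.0633). Neither neighbour of Uba7 or of Herc6 was called.

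**Figure D5:**
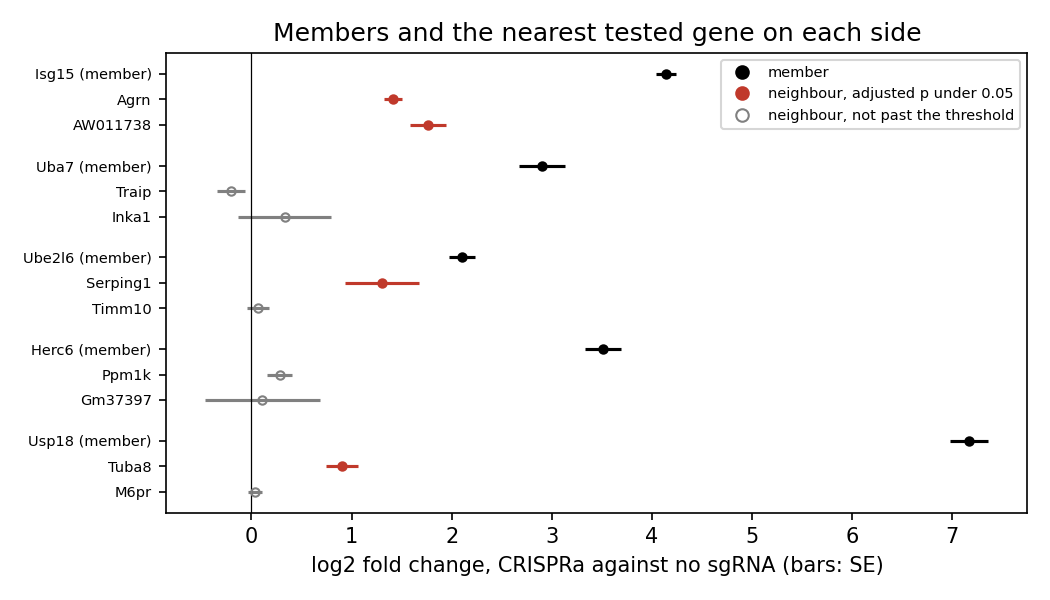
Log2 fold change with its standard error for each member and for the nearest tested gene on each side of it. Agrn (1.41) and AW011738 (1.76) flank Isg15, and no neighbour reaches the value of its member.

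Transcripts of interferons themselves were looked for in the same libraries. The 11 listed ligand genes, Ifnb1 and several Ifna genes among them, had 0 counts in every library, that is, they were not detectable above 0.0871 to 0.101 CPM. Markers of other cell types were low: the 7 macrophage or microglia genes summed to 1.10 to 1.62 CPM with CRISPRa and 0.758 to 1.65 CPM without the guide, with Itgam, Adgre1 and Cx3cr1 at 0. The 5 fibroblast genes summed to 14.6 to 21.4 CPM with CRISPRa against 28.6 to 32.4 CPM, the 4 endothelial genes to 8.42 to 11.6 against 10.1 to 13.7 CPM, and the 4 astrocyte genes to 0.925 to 1.28 against 1.11 to 1.67 CPM. Within these lists Pdgfra and Col1a2 (fibroblast) were called lower, while Cdh5 (endothelial) was called higher, by 2.04 on the log2 scale (edgeR adjusted p 0.0105), from 4 to 22 counts in the controls and 48 to 69 with CRISPRa. The endothelial marker Kdr and the astrocyte marker Slc1a3 were at 0 in all 6 libraries. The 10 neuroblastoma markers, none at 0 in all libraries, summed to 1110 to 1290 CPM with CRISPRa and 1420 to 1530 CPM without the guide, and Phox2a and Hand2 among them fell by 0.69 and 0.43 (log2). The part of these shifts in the results on the ISG15 system was not tested. The sgRNA plasmid was given only to the CRISPRa cultures, so the guide and its plasmid cannot be told apart as the difference between the groups.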

How the data were processed

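The authors deposited whole-number read counts per gene for 6 libraries, with each gene's exon length, in the layout of featureCounts per the file headers. STAR 2.5.1b, featureCounts, DESeq2, R 4.1.2 and the build mm10 are named in the submitters' processing notes, without role or order; use of strand and of reads with several hits are not given in the sources used here. A second table holds the authors' deposited comparison over 8 samples: a mean normalised signal, a log2 fold change with its error, a Wald score and p-values. The remaining 2 of the 8 samples, replicate 1 of CRISPRa and replicate 5 of the controls, were not analysed here. Groups and replicate numbers come from the sample titles.

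Counts were tested with edgeR 4.0.16 in R 4.3.3 (filterByExpr at its defaults, TMM, glmQLFit, glmQLFTest, no covariate), with Benjamini-Hochberg adjustment over 15117 genes and a threshold of 0.05. The SE is the log2 fold change divided by the square root of F. The script was tested on simulated data. Shared 50-base words and overlaps come from GENCODE M21. The members and gene lists were chosen with earlier results of these data known. Genes named are the members, in each list up to 3 called genes in each direction and the closest relatives by role, the 3 most similar profiles per member, and Scn2a. Ubd, Gabarap, Gabarapl2, Herc1, Phox2a, Hand2, Pdgfra, Col1a2, Cdh5 and the chromosomal neighbours were added after values were seen. Marker and ligand lists are given as sums and counts. No library was dropped or imputed, and no pair of replicates agreed within sampling noise. Alternatives were other scalings, filters and tools (DESeq2 1.42.0, limma 3.58.1), a replicate block, a stricter threshold and leaving out each library. Some genes that this rule names are not reported here.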

Additional observations from a re-analysis of the deposited data

How the results depend on the processing

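The 5 members kept their direction and stayed past the threshold in all 15 alternatives run for each. Log2 fold changes ran from 3.96 to 4.21 for Isg15, 2.62 to 3.08 for Uba7, 1.94 to 2.22 for Ube2l6, 3.31 to 3.79 for Herc6 and 6.72 to 7.40 for Usp18. With the replicate block on the 4 libraries numbered 2 and 3, Isg15 was at 3.96 and Usp18 at 6.72, and the block ended the call of no member. Deviations from the group means correlated at -0.0046 and -0.026 across 15117 genes between libraries of equal number. Those means include the libraries that stood apart, so whether equal numbers share more than a number is not settled. The block gave 3170 called genes in all. At an adjusted p under 0.01 there were 1417 called genes and 2 USP genes, where the threshold itself is the cause. Other HERC genes numbered 2 with no filter and with DESeq2, and 1 to 2 when a library was left out; USP genes then numbered 3 to 5. All pair ratios kept their sign. Of 40 named called genes other than the members, 35 were called in all 15 alternatives and none reversed. Uba1, near no change, ran from -0.0365 to 0.00707 when a library was left out, with 0.00581 without CRISPRa replicate 2 and 0.00707 without no-sgRNA replicate 4. The cause of these shifts was not tested. Depth limits Usp18 in the controls, where it had 13 to 32 counts.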
